A study of Mus musculus with 2 samples.

Results

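The MNT, MYC and MAX network is described here by the CUT&Tag peaks of DLX2 that lay around its genes in the maxillary process, the outgrowth of the embryonic face that forms most of the upper jaw. Its 10 members, *Mnt*, *Max*, *Mxd1*, *Mxd3*, *Mxd4*, *Mxi1*, *Myc*, *Mycn*, *Mlx* and *Mga*, were taken by name out of 21779 protein-coding genes with usable coordinates. The network was chosen because an MNT motif was among those that the study named for its peaks. The peak lists used here are longer than those that the study describes, and the motif was not searched for in them here. A peak counted for a member when it lay inside the gene or within 100 kb of it, by the RefSeq extents of GRCm38, which is the build mm10 of the peak lists. Of 10921 regions found in the lists of both replicates, 11 met this rule. Both libraries came from maxillary process cells of wildtype C57BL/6 mouse embryos at E12.5, with an antibody against DLX2, a homeodomain transcription factor. They form 1 group of 2 replicates, and no control library was used here, so no groups were compared and no test was made. The sources do not say how many embryos went into each library. Peak lists hold no expression values, so the labelled tissue could not be checked against marker genes. In CUT&Tag an antibody brings a transposase to its target in permeable cells, and the tagged fragments that are sequenced pile up there.

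The proteins of this network share a basic helix-loop-helix leucine zipper, with which they pair and touch DNA. MYC and MYCN need MAX as a partner to bind E-boxes, of which CACGTG is the preferred form, and activate genes of growth and division. MNT, MXD1, MXI1, MXD3 and MXD4 pair with MAX as well, recruit SIN3 corepressors and act as antagonists of MYC, MGA is a further MAX partner with a T-box domain, and MLX pairs with MNT, MXD1 and MXD4 among others. MNT has been tied to the growth of the face, since mice without it have craniofacial defects.

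No genome sequence was used here, so the sequence under the peaks could not be read. RefSeq promoter sequences of GRCm38.p6 were therefore searched, each of them 250 bases before to 50 bases after a start site. Of the members, 9 had an entry, with 11 start sites in all, and *Myc* had none. The E-box CACGTG, which reads the same on both strands, was present for 4 of the 9 members, *Mnt*, *Mxd4*, *Mlx* and *Max*, and for 8.09% of the 27025 genes in the table. These genes outnumber the 21779 coding genes behind the other shares given here, so the motif shares are over a different set. The longer CACACGTG, searched on both strands and holding the shorter motif within it, was present for *Mnt* and for 0.958% of all genes. The homeodomain core TAATTA, also its own reverse complement, was present for 0 of the 9 members and for 6.12% of all genes. Below are the promoters of the members with an E-box, in capitals, so that the peaks nearest to them can be placed, followed by that of the second start site of *Mxi1*, the only member with a region of both lists within 2 kb of a start site. Each is read on the strand of the gene and ends just before the start site, except that of *Max*, which runs to the end of the E-box across it. The RefSeq extents of *Mnt*, *Max*, *Mlx* and *Mxi1* begin before these start sites, so part or all of each of those windows lies within the gene.
*Mnt*, chr11:74830674-74830923, + strand: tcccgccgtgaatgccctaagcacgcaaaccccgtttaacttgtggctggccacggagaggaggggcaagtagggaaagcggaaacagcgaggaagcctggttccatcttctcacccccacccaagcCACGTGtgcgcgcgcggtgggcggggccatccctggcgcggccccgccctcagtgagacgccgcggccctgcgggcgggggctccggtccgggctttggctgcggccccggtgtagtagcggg
*Mxd4*, chr5:34187711-34187960, - strand: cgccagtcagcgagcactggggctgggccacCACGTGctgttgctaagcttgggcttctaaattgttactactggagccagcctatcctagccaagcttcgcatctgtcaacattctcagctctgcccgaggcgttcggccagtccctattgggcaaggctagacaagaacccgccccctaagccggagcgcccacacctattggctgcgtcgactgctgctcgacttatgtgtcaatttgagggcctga
*Mlx*, chr11:101087040-101087289, + strand: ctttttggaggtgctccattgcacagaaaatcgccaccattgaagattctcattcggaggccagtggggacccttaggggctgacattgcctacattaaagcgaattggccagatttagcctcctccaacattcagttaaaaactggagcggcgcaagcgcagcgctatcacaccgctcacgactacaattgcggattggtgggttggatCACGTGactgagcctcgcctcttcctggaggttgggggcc
*Max*, chr12:76962246-76962498, - strand: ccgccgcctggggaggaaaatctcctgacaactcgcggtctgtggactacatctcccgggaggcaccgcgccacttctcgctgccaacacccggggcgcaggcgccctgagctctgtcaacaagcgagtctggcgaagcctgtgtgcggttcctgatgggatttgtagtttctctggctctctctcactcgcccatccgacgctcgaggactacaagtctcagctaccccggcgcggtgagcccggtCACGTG
*Mxi1*, chr19:53329163-53329412, + strand: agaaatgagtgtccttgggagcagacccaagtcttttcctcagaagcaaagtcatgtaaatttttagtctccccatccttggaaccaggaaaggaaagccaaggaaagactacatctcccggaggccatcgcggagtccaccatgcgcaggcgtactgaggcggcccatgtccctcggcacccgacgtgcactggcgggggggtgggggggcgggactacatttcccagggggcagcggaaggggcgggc

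The E-box began 123 bases before the start site of *Mnt*, 219 before that of *Mxd4*, 40 before that of *Mlx* and 3 before that of *Max*. None of the 4 start sites had a region of both lists within 2 kb, and only 2.31% of all coding genes had one so placed. The nearest peak to the *Mnt* start lay 1.14 kb away in replicate 1 and 7.26 kb away in replicate 2. For *Mlx* the nearest peak of replicate 1 was 4.17 kb from the start, and that of replicate 2 was within 2 kb of it. For *Mxd4* the distances in replicates 1 and 2 were 29.9 kb and 8.07 kb, and for *Max* they were 8.22 kb and 38.3 kb. The peak within 2 kb of the *Mnt* start and that within 2 kb of the *Mlx* start were thus each listed in a single replicate.

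All 10 members had a peak within 100 kb in each list, as did 83% of coding genes in replicate 1 and 91.7% in replicate 2. Around the 10 members the list of replicate 1 held 40 peaks and that of replicate 2 held 81. The replicates held 28061 and 62093 peaks in all. Replicate 2 had 2.02 times as many peaks as replicate 1 around the members, against 2.21 times over the whole lists. It held more peaks than replicate 1 for 8 members and the same number for *Mnt* and *Mga*. Of the peaks around the members, 27.5% of those of replicate 1 and 13.6% of those of replicate 2 met a peak of the other list, against 38.9% and 17.2% over all peaks. A member had a median of 3.5 peaks in replicate 1 and 8 in replicate 2, where coding genes in general had 3 and 8.

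A region of both lists is the segment, of 1 bp or longer, where peaks of the 2 replicates overlap. Such a region lay within 100 kb of 6 of the 10 members. Among all coding genes the share was 60.2%, so the members did not stand above the background. The median number of such regions was 1 both for the members and for all coding genes. *Mxi1* had 5, *Mxd1* had 2, and *Mnt*, *Max*, *Mycn* and *Mlx* had 1 each. *Mxd3*, *Mxd4*, *Myc* and *Mga* had 0. Thus 2 of the 10 members had 2 or more, as did 35.3% of coding genes. At least 5 were found around 4.86% of coding genes, and *Mxi1* was the only member among them. Its count depended on the rule, and was 3 with 50% of each peak in common and 2 within 10 kb. The window grows with the gene, and *Mxi1* at 63.2 kb is the second longest member after *Mga* at 97.6 kb.

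**Figure D1:**
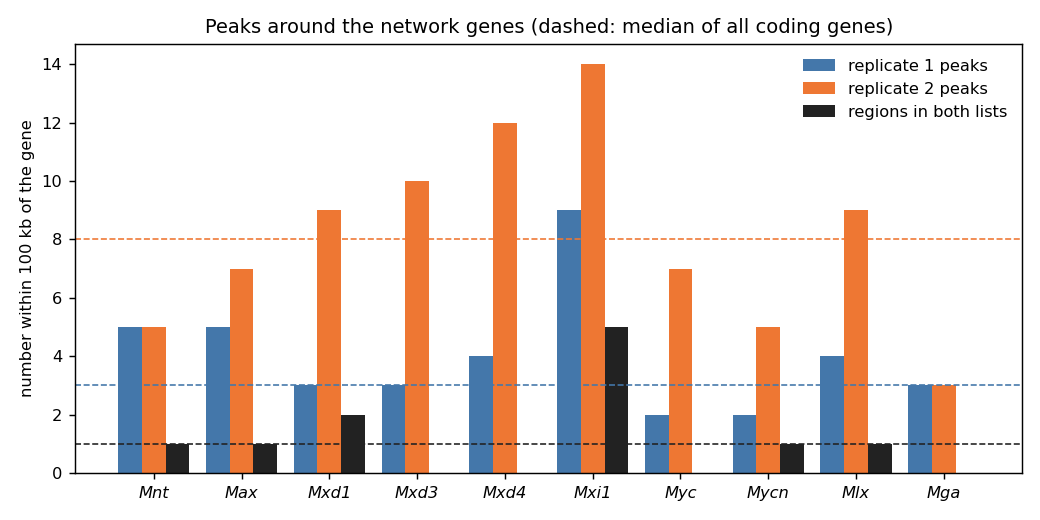
Bars give the number of peaks of replicate 1, of peaks of replicate 2 and of regions in both lists within 100 kb of each of the 10 genes, and dashed lines give the medians over all coding genes (3, 8 and 1). *Mxi1* has the most of all 3, with 9 peaks, 14 peaks and 5 regions.

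**Figure D2:**
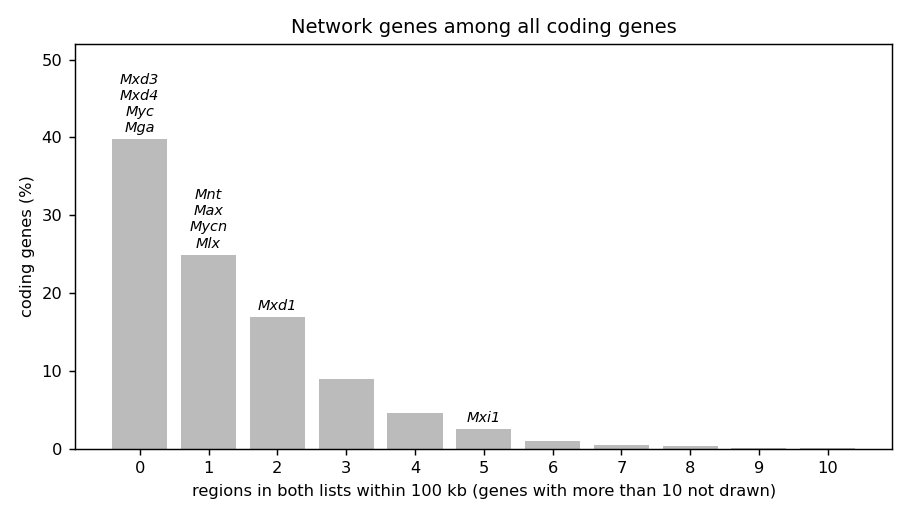
Bars give the percentage of the 21779 coding genes with each number of regions in both lists within 100 kb, and the members are named above the bar they belong to. Of the members, 4 fall in the bar at 0, 4 at 1, *Mxd1* at 2 and *Mxi1* at 5.

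Of the 11 regions, 4 lay inside a member, 2 inside a neighbouring gene and 5 between genes. The same split over all regions of both lists was not computed, so these 3 numbers have no background beside them. The 4 inside a member were divided between *Mxd1* and *Mxi1*, so that 2 of the 10 members held a region of both lists, against 14.6% of all coding genes. In the list of replicate 1, 3 members held a peak (30.6% of coding genes), and in that of replicate 2, 3 members did (48.8%). Within 2 kb of a listed start site, or of either end for a gene without one, a region of both lists was found for *Mxi1* alone, 1 of 10 members against 2.31% of coding genes. Replicate 1 had a peak so placed for *Mnt* and *Mxi1* (7.26% of coding genes), and replicate 2 for *Mxd1*, *Mxi1* and *Mlx* (18.3%). *Mxi1* has 3 listed start sites, more than any other member, and its region near them spans 58 bp. The count of members with a region at a start site stayed at 1 within 1 kb or 5 kb. It was 0 with summits within 150 bp, with 50% of each peak in common, or with either gene end in place of start sites. None of the 11 regions lay over any promoter sequence in the table, of a member or of another gene. The share over all 10921 regions was not computed, so this 0 was not set against a background. Regions of both lists near start sites were rare in general, as the 2.31% of coding genes above shows.

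**Figure D3:**
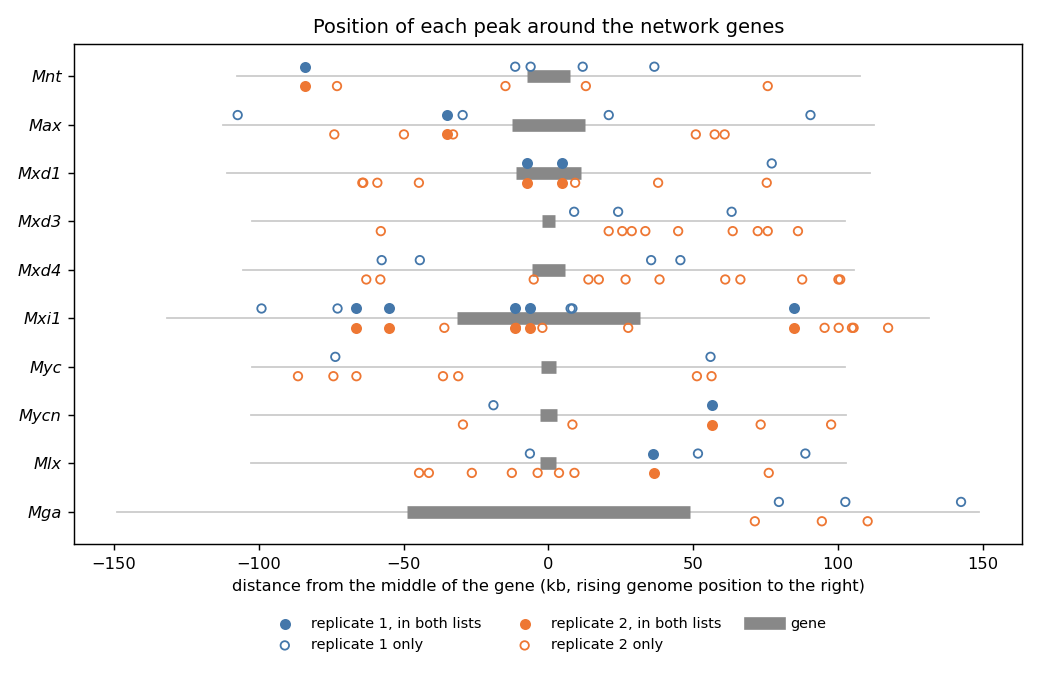
Each row is a member, with the gene as a thick bar and the 100 kb on either side as a thin line, and the x axis gives the distance in kb from the middle of the gene. Circles are peaks, replicate 1 above and replicate 2 below the line, filled where the peak meets a peak of the other replicate; filled circles lie inside the gene only for *Mxd1* and *Mxi1*.

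The regions rested on few fragments. The number of fragments at the summit of each peak was recovered from its fold and −log10 p, and is an inference rather than a deposited count. The 11 regions had 4 to 10 fragments in replicate 1, with a median of 6, and 8 to 23 in replicate 2, with a median of 10. Over all regions of both lists the medians were 7 and 12. Fold enrichment sets the fragments at a summit against the background in its own library, with 1 added to each. The recovered background had a median of 0.484 in replicate 1 and 1.29 in replicate 2. The added 1 lowers folds more where the background is lower. Folds of the 2 replicates, and means and SDs over them, are therefore not on 1 scale. The fold had a median of 4.51 in replicate 1 and 4.09 in replicate 2 over the 11 regions, against 5.05 and 5.12 over all. By the lower of the 2 folds, 7 of the 11 regions lay under the median of all regions, which was 4.51. 

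Among the antagonists of MYC, *Mxi1* (chr19:53310128-53373293) had the most peaks, 9 in replicate 1 and 14 in replicate 2. At least 9 peaks of replicate 1 were found around 7.01% of coding genes, and at least 14 of replicate 2 around 21.9%. The strongest region near any member lay upstream of it at chr19:53286659-53286850, between genes and 23.3 kb from the gene on the side of its first start site. The gene nearest to this region was *Gm36339*, 19.8 kb away, and *Mxi1* was the nearest coding gene. The fold of the region was 6.86 in replicate 1 and 9.52 in replicate 2, with a mean of 8.19 ± 1.88 (SD, n = 2). It rested on 9 fragments in replicate 1 (95% Poisson interval 4.12 to 17.1) and on 23 in replicate 2 (interval 14.6 to 34.5), intervals that cover counting error only. The summits of the replicates lay 40 bp apart. Of all regions in both lists, 7.24% had a lower fold at least as high, and it was the only region near a member that kept a −log10 q of at least 5 in both lists (5.78 and 15.2). With that cut, 1 of the 10 members and 14.9% of coding genes had a region within 100 kb.

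A second region upstream of *Mxi1*, at chr19:53275168-53275370, lay 34.8 kb from the gene. This region was 8.3 kb from *Gm36339*, and its nearest coding gene was *Add3*. Its fold reached 4.88 in replicate 1 against 4.03 in replicate 2. Within the gene, the region at chr19:53330054-53330111 lay 0.359 kb after the third listed start site and 0.641 kb after the second, whose promoter is printed above. Its fold was 4.28 in replicate 1, on 5 fragments, and 4.09 in replicate 2, on 8 fragments. Only 58 bp were common to the 2 peaks, whose summits were 152 bp apart. Another replicate 2 peak, with a fold of 4.33, began 693 bp after the third start and met no replicate 1 peak. A region of 25 bp farther into the gene, 5.74 kb after the third start at chr19:53335439-53335463, had folds of 5.37 and 4.80. Beyond the gene, a region at chr19:53426544-53426665 had folds of 4.51 and 3.82 and lay 14.5 kb from *Mirt1*, a long noncoding RNA gene. The nearest coding gene to that region was *Smndc1*. The folds of these 4 regions were close to each other and lower than those of the upstream region in both replicates.

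Strong single-replicate peaks were also seen inside *Mxi1*. In replicate 1 the peaks at chr19:53349291-53349460 and chr19:53349938-53350048 had folds of 6.52 and 5.90, on 9 and 8 fragments. The nearest replicate 2 peak lay 9599 bp from the first of them. Both folds were above the replicate 1 folds of the 4 weaker regions of both lists, of which 5.37 was the highest, yet neither peak was met in the longer list of replicate 2.

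**Figure D4:**
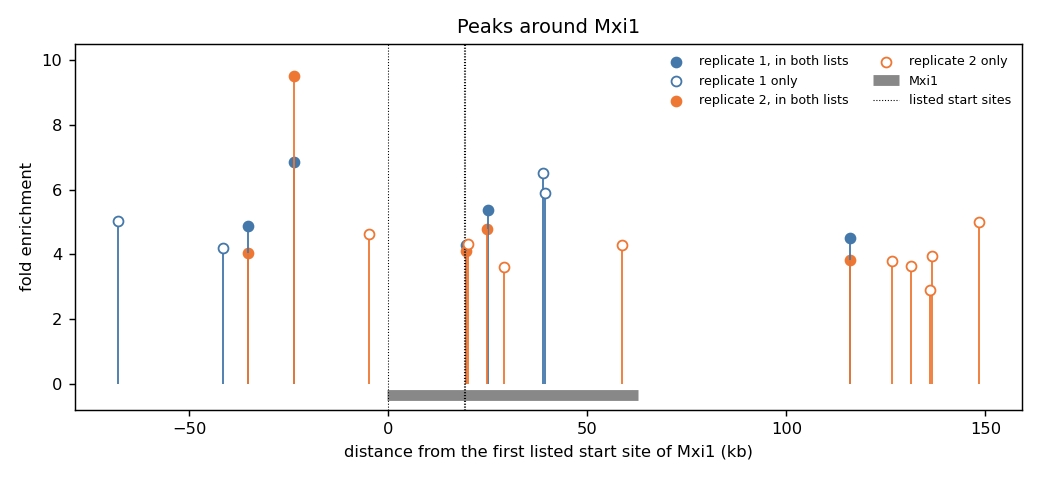
Stems give the fold enrichment of each peak (y axis) against its distance in kb from the first listed start site of *Mxi1* (x axis), with filled heads for peaks found in both lists, a grey bar for the gene and dotted lines at the 3 listed start sites. The upstream pair at 6.86 and 9.52 stands above the rest.

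*Mxd1* (chr6:86647044-86669234), which encodes a MAX partner best known from cells that leave the cell cycle, had 3 peaks in replicate 1 and 9 in replicate 2. Both of its regions lay inside the gene. The region at chr6:86650709-86650857 was 18.3 kb after the start site, with replicate 1 at 4.14-fold and replicate 2 at 3.59-fold. The region at chr6:86662766-86662869, 6.29 kb after the start and also within the long noncoding gene *Gm38850*, had folds of 4.03 and 3.89. In each replicate the 2 folds were close, on 5 or 6 fragments in replicate 1 and 10 in replicate 2. Another peak, 1.66 kb after the start with a fold of 4.24, was listed in replicate 2 only. Of the 3 replicate 1 peaks around *Mxd1*, 2 were thus inside the gene and met by replicate 2.

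*Mnt* (chr11:74830806-74845725) had 5 peaks in each replicate, and 1 region was found in both. It lay at chr11:74754209-74754324, 76.5 kb from the gene on the side of its start site and 15.9 kb from *Gm40198*, with *Mettl16* the nearest coding gene. Its fold was 4.09 in replicate 1, on 5 fragments, and 5.04 in replicate 2, on 10 fragments. This region was the farthest from its member of the 11. The gene itself held 1 peak in replicate 1 and 0 in replicate 2. That peak, at chr11:74832067-74832171, lay 1.14 kb after the start site, had a fold of 3.85 on 6 fragments, and was 8407 bp from the nearest peak of replicate 2. In the neighbouring gene *Sgsm2*, a replicate 1 peak with a fold of 5.48 and a replicate 2 peak with a fold of 3.28 lay 974 bp apart. The counts of *Mnt* were common, since 33 other coding genes had 5 peaks in each replicate and 1 region in both, whereas 10 others had the 3 counts of *Mxi1*.

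*Mxd3* and *Mxd4*, which encode the remaining MXD antagonists, had no region in both lists. *Mxd3* (chr13:55325170-55329900) had 3 peaks in replicate 1 and 10 in replicate 2, and none was inside the gene. Of these 10, 4 lay in *Lman2* and 3 in *Slc34a1*. The closest peaks of the replicates lay 202 bp apart, with folds of 3.93 and 3.37. *Mxd4* (chr5:34176580-34187710) had 4 peaks in replicate 1 and 12 in replicate 2, the second highest number among the members. Of these 12, 9 lay in the neighbouring gene *Zfyve28* and 1 inside *Mxd4*, with a fold of 4.20. Its closest peaks of the replicates were 273 bp apart. At least 12 replicate 2 peaks were found around 31.6% of coding genes, so the number was not unusual.

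*Myc* and *Mycn*, the activators, held no peak inside the gene in either list. *Myc* (chr15:61985341-61990361) had 2 peaks in replicate 1 and 7 in replicate 2, and the nearest region of both lists was 375 kb away, the longest such distance among the members. Both replicate 1 peaks had a fold of 3.60 on 4 fragments, the fewest of any peak in that replicate. Peaks of the 2 lists came within 240 bp of each other in *Pvt1*, the long noncoding gene next to *Myc*, and within 537 bp on the other side. The strongest *Myc* peak was listed in replicate 2 only, at chr15:61951314-61951591, 33.8 kb from *Myc* and 11.3 kb from *Gm18788*, its nearest gene. Its fold was 6.49 on 13 fragments (95% Poisson interval 6.92 to 22.2), and the nearest replicate 1 peak lay 37007 bp away.

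*Mycn* (chr12:12936093-12941836) had 2 peaks in replicate 1 and 5 in replicate 2. Its region in both lists, at chr12:12995413-12995528, lay 53.6 kb before the start site, between genes and 1.06 kb from *Gm35208*. Its fold was 4.97 in replicate 1, on 6 fragments, and 5.98 in replicate 2, on 12 fragments, with a mean of 5.48 ± 0.71 (SD, n = 2). The whole replicate 1 peak of 116 bp lay within the replicate 2 peak of 341 bp. Of all regions of both lists, 35.8% had a lower fold at least as high.

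*Max* (chr12:76937269-76962323), the common partner, held no peak inside the gene in either list, with 5 peaks around it in replicate 1 and 7 in replicate 2. Its region in both lists, at chr12:76914672-76914744, lay inside the neighbouring gene *Fntb*, which encodes a farnesyltransferase subunit. With folds of 3.29 and 3.36 on 4 and 8 fragments, it was the weakest of the 11, and 96.7% of all regions had a lower fold at least as high. *Fntb* held 3 of the 5 peaks of replicate 1 and 4 of the 7 of replicate 2. The strongest peak near *Max*, with a fold of 5.69 in *Gm35041*, was listed in replicate 2 only.

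*Mlx* (chr11:101086707-101092207) had 4 peaks in replicate 1 and 9 in replicate 2, none of them inside the gene. Its region in both lists, at chr11:101125597-101125863, lay inside *Tubg1*, which encodes gamma-tubulin, 33.4 kb from *Mlx*. It was the longest of the 11 at 267 bp, and its summits were the closest, 19 bp apart. Its fold was 6.15 in replicate 1, on 10 fragments, and 5.71 in replicate 2, on 16 fragments, with a mean of 5.93 ± 0.32 (SD, n = 2). This and the upstream region of *Mxi1* were the only 2 of the 11 that kept a fold of at least 5 in both lists, a level at which 28.6% of coding genes had a region within 100 kb. The replicate 2 peak closest to the *Mlx* promoter printed above, in *Coasy* and 0.914 kb from *Mlx*, had a fold of 3.02.

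*Mga* (chr2:119872503-119970129), the longest member, had the fewest peaks of replicate 2, with 3 in each replicate. All 6 lay on the same side of it, and none was inside its 97.6 kb. *Mapkbp1* held 2 of the 3 in each replicate. The closest peaks of the replicates lay 7530 bp apart, farther than around any other member without a common region. At least 3 replicate 2 peaks were found around 79.8% of coding genes.

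**Figure D5:**
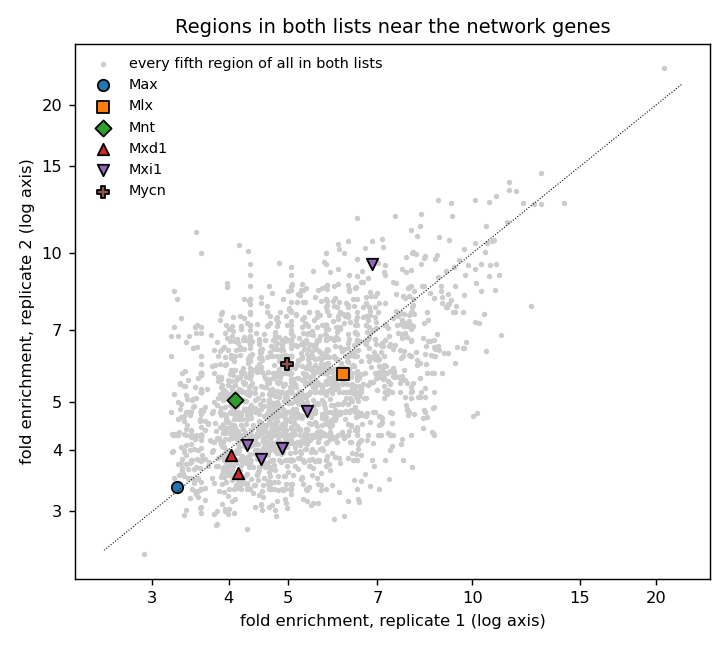
Each marker is a region of both lists near a member, with its fold enrichment in replicate 1 (x axis) and replicate 2 (y axis), both on log axes, over 1 in 5 of the 10921 regions in grey; the dotted line marks equal folds. The 11 regions lie among the others, from 3.29 and 3.36 for *Max* to 6.86 and 9.52 for the upstream region of *Mxi1*.

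Of the 11 regions, 7 had the higher fold in replicate 1 and 4 in replicate 2. The strong upstream region of *Mxi1* was first and the region near *Max* last in both replicates. In replicate 2 the highest folds were those of the regions upstream of *Mxi1* and *Mycn*, that in *Tubg1* beyond *Mlx* and that near *Mnt*, all outside the member. This order did not hold in replicate 1. There a region inside *Mxi1*, with a fold of 5.37, came above that of *Mycn*, with 4.97. The *Mnt* region, at 4.09 in replicate 1, lay under the median of the 11, which was 4.51. Just beyond the 100 kb, the next regions of both lists lay 104 kb from *Mxi1*, 110 kb from *Mycn* and 124 kb from *Mxd4*.

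Of 23 other genes of the pathway, 13 partners and cofactors and 10 growth genes known as MYC targets, 18 had a region of both lists within 100 kb, against 60.2% of all coding genes. No test was made of this count. The 5 without were *Mlxipl*, *Hdac1*, *Kat2a*, *Ldha* and *Ccnd2*. With windows of 10 kb the number with a region was 3, against 21.7% of coding genes. With 50 kb it was 9, against 44.7%. At 100 kb it was 3, against 14.9%, with a −log10 q of at least 5, and 9, against 28.6%, with a fold of at least 5. The 23 genes had a median length of 23.9 kb, against 17.2 kb for all coding genes, and the window grows with the gene. Without these cuts, the median number of regions within 100 kb was 2 for the partners and 1 for the growth genes, against 1 for all coding genes. *Cdk4*, a kinase of the cell cycle, had 5 regions, the nearest 13.6 kb from it, and at least 5 were found around 4.86% of coding genes. *Fbl* and *Sin3b* had 4 each, and at least 4 were found around 9.4%. *Hdac2* and *Sin3b*, which encode parts of the SIN3 corepressor that the antagonists recruit, were the only 2 of the 23 with a region inside the gene, against 14.6% of coding genes. That of *Sin3b* lay 33845 bp after the start with folds of 3.99 and 3.25. A region of *Trrap*, which encodes a MYC cofactor, lay 1.07 kb beyond the gene, with folds of 6.20 and 4.16.

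*Hdac2* was the only gene of the 33, members included, with a region of both lists over its own promoter sequence. The region at chr10:36974247-36974536 ended just before the listed start site, and most of it lay within the RefSeq extent, which begins earlier. Its fold was 4.33 in replicate 1, on 5 fragments, and 6.19 in replicate 2, on 12 fragments. The part of it that the promoter table covers is printed because it is the only sequence under these regions that could be read, and it holds neither CACGTG nor TAATTA.
*Hdac2*, chr10:36974294-36974536, + strand: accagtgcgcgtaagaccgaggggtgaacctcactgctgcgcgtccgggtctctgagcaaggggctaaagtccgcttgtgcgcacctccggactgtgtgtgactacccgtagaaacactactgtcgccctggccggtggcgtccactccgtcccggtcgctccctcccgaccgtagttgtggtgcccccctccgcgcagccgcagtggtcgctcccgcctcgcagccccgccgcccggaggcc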

How the data were processed

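DLX2 CUT&Tag peak lists of 2 wildtype libraries were used, numbered in the order of their sample records. Per the labels, sonicated chromatin was precipitated, whereas the methods describe transposase tagging. The submitters' processing notes name Trim Galore 0.4.5, Bowtie 1.1.2 and MACS2 2.2.7 with mm10, and the methods name bowtie2 and another Trim Galore release; caller settings are not given in the sources used here. The authors called peaks on each library alone. The deposited fold enrichment sets summit fragments against background, each with 1 added. The recovered background had a median of 0.484 in replicate 1 and 1.29 in replicate 2, so the added 1 weighs heavily on the fold. The deposited −log10 p and −log10 q are the caller's, with a lowest −log10 q of 1.00 in each list. The deposited score is the whole part of 10 times the −log10 q, and the summit is given in bases from the peak start.

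Read totals were not analysed here. Fragments at the summit were recovered from fold, taken as fragments plus 1 over background plus 1, and from a Poisson upper tail, to a tolerance of 0.001, for 100% of peaks; the overlap and recovery steps were tested on simulated data. Genes were RefSeq extents of GRCm38.p6, leaving out mitochondrial and unplaced genes and 340 listed before position 3000000 of a chromosome other than Y; start sites came from the promoter table. Counts of genes with a region were set beside the share over coding genes, with no test. The members and lists were chosen with earlier results of these data known. All members and all regions of both lists near them are named; other neighbouring genes were named after their values were seen. The planned motif search under the peaks could not be run without a genome. Scripts ran on Python 3.11.15 with scipy 1.17.1, pandas 2.3.3, numpy 2.4.6 and matplotlib 3.10.9.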

Additional observations from a re-analysis of the deposited data

How the results depend on the processing

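Of 59 alternatives to the counts over the members and the other network genes, 14 stayed within 1.5 times the main count; lower counts under filters, and higher counts in wider windows, follow from their construction. The cut on −log10 p and the use of either gene end were chosen after the data were seen. At a −log10 q of at least 5, the members had 2 peaks in replicate 1, 6 in replicate 2 and 1 region in both lists near 1 member, with 0 members holding a region and 0 with it at a start site, and 3 other network genes had a region (14.9% of coding genes). A fold cut of 5 gave 9, 10, 2 regions, 2 members, 0, 0 and 9 genes, and a −log10 p cut of 7 gave 6, 11, 2 regions, 2 members, 0, 0 and 10 genes, with 28.6% of coding genes having a region at either cut. Requiring 50% of each peak left 5 regions near 2 members, against 44.8% of coding genes, with 1 member holding a region and 0 at a start site. That rule left 13 other network genes with a region. Summits within 150 bp left 9 regions near 5 members, against 56.2% of coding genes, and 17 other network genes. They left 0 members with a region at a start site, as did either gene end in place of start sites. Windows of 10 kb gave 12 and 18 peaks, 4 regions, 2 members (21.7% of coding genes) and 3 other genes. Windows of 50 kb gave 26 and 47 peaks, 8 regions, 4 members (44.7% of coding genes) and 9 other genes. Windows of 500 kb gave 167 and 399 peaks, 52 regions and 10 members (88.3% of coding genes). With a single replicate, 40 peaks of replicate 1 or 81 of replicate 2 stood in place of the 11 regions, 10 members had a peak within 100 kb, against 83% of coding genes in replicate 1 and 91.7% in replicate 2, and 2 to 3 members had it at a start site. Of 100 alternative counts for single members, 58 differed by more than 1.5 times, 29 higher and 29 lower. The 5 regions of *Mxi1* became 3 with 50% of each peak in common and 4 with summits within 150 bp. They became 2 within 10 kb, 4 within 50 kb and 8 within 500 kb. With a −log10 q of at least 5, or a fold of at least 5, 1 was left.

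No paired analysis was possible because both libraries belong to 1 group. Few fragments limit each region, and without a control library no count separates DLX2 sites from background that both libraries share.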
